A study of Mus musculus with 47 samples.

Results

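The genes described here are 10 genes that mark oligodendrocyte precursors and newly formed oligodendrocytes, namely Pdgfra, Cspg4, Olig1, Olig2, Bmp4, Neu4, Gpr17, Tcf7l2, Enpp6 and Itpr2. They were taken by symbol from a table of 14221 genes, and all 10 were found in it. They are given in the order of the stage at which each is known to be expressed, from dividing precursors to newly formed oligodendrocytes. Counts of mRNA reads were measured in the hypothalamus of 47 male ob/ob mice, with 1 library per mouse. All mice carried the ob mutation of the leptin gene, so that every group, controls included, lacked leptin, and the labels give their age as 11 weeks. FGF1 (3 µg) or vehicle was given once into the cerebral ventricles (icv), and the vehicle-injected mice were pair-fed to the intake of the FGF1-injected mice. The study's methods give 5 days as the length of pair-feeding. Day 1 had 10 mice given FGF1 and 4 given vehicle. Day 5 had 9 mice given FGF1 and 2 vehicle groups, of 7 mice labelled non-diabetic and 7 labelled diabetic. The study's text counts fewer vehicle-treated mice on Day 5 than the labels do and does not say which of these groups it used, and its methods leave out mice that were not diabetic, so both groups are given and their diabetic status rests on the labels alone. Day 42 had 5 mice given FGF1 and 5 given vehicle. The vehicle-treated mice of Days 1 and 42 are labelled non-diabetic. No group of lean or uninjected mice was analysed here.

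Oligodendrocytes, the myelin-forming glia of the brain, arise throughout life from precursor cells that divide in response to platelet-derived growth factor (PDGF). A precursor that commits to differentiation leaves the cell cycle, passes through a short committed stage marked by Gpr17, becomes a newly formed oligodendrocyte marked by Enpp6 and then makes myelin. In the hypothalamus such precursors are found throughout the parenchyma, including the median eminence, where oligodendrocytes turn over in the adult.

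The total count per library ran from 1243280, in FGF1 replicate 1 of Day 1, to 47082403. No library had 0 counts for any of the 10 genes, and the lowest single count was 4, for Bmp4 in that library. All libraries of a day carried 1 preparation code, and whether any 2 days shared a code is not reported here. Differences in level between days were therefore not separated from differences in preparation, whereas each comparison of FGF1 with vehicle lay within 1 day. Levels are given in CPM, the unit of counts scaled to library size that is used throughout. Of 18 marker genes of the hypothalamus, 16 were in the table, and their summed level ran from 446 to 1816 CPM over all libraries. On Day 1 this sum was 973 to 1420 CPM with FGF1 and 1377 to 1816 CPM with vehicle, with 1 marker of 16 called higher and 2 lower, beside 11.5% and 8.05% of all genes, and its part in the results of that day was not tested. Libraries were prepared from tissue punches, in which fewer cells of a type and less RNA per cell cannot be told apart.

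The regulatory sequence next to the start of 4 of the genes is shown because these genes rose together on Day 5 against both vehicle groups. Each is the RefSeq promoter on GRCm38.p6 from 250 bases before to 50 bases after the start of the gene, written 5′ to 3′ on the strand of the gene. The windows are chr14:46390620-46390919 (minus strand) for Bmp4, chr1:94020243-94020542 (plus strand) for Neu4, chr8:46986637-46986936 (plus strand) for Enpp6 and chr6:146502174-146502473 (minus strand) for Itpr2. Capitals mark CANNTG, the core letters bound by basic helix-loop-helix factors such as Olig1 and Olig2, searched on both strands.
Bmp4: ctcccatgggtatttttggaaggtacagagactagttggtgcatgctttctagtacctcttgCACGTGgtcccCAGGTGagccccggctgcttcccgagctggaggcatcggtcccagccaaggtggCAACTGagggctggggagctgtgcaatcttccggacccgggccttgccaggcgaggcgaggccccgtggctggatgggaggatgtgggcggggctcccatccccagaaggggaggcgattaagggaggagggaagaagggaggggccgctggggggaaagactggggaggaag
Neu4: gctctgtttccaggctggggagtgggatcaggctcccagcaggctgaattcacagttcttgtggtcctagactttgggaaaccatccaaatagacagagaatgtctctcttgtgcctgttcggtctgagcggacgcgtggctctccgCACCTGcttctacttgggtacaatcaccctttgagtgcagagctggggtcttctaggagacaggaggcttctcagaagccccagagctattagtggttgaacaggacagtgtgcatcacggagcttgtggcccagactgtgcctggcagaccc
Enpp6: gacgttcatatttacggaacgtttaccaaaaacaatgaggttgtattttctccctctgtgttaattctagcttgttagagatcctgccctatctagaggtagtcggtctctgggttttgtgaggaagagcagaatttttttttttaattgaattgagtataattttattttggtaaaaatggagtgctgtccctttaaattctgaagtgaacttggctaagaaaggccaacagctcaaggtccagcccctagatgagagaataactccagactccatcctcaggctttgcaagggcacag
Itpr2: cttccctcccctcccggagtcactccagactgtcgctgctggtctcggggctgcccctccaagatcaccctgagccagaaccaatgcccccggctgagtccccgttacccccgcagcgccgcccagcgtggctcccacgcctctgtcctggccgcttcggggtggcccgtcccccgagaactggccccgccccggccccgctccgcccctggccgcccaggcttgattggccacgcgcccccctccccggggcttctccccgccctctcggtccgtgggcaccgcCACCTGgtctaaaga
The Bmp4 window held 3 matches to CANNTG, the Neu4 and Itpr2 windows 1 each and the Enpp6 window 0, where 72.1% of 27025 promoters of the same length held at least 1. The form CAGCTG, which is part of the CANNTG set, had 0 matches in the 4 windows and was in 16.1% of all promoters. The Enpp6 window held 1 match to ACAATG, a core of Sox factor motifs that was in 12.8% of all promoters. ACAAAG, in 18.7% of all promoters, and ATCAAAG, the core of the Tcf and Lef motif in 3.72% of them, had 0 matches in the 4 windows. Promoters of 8 of the 10 genes were in the RefSeq table, and Olig1 and Gpr17 were not matched.

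Olig1 had the highest level per length in all 7 groups. CPM divided by the length of all exons of a gene in kilobases was used to compare genes, and these levels are means ± SD. In the 7 non-diabetic vehicle-treated mice of Day 5, Olig1, a transcription factor of the whole lineage (chromosome 16, 91269772 to 91271933 on GRCm38), had 35.3 ± 4.10 CPM per kb. Pdgfra, the receptor for PDGF-AA that keeps precursors dividing (chromosome 5, 75152292 to 75198215), followed with 9.00 ± 0.325. Its range over mice overlapped that of Gpr17, a G-protein-coupled receptor of committed precursors (chromosome 18, 31942997 to 31949636), which had 8.23 ± 0.652. Olig2, the factor required to specify the lineage (chromosome 16, 91225457 to 91228677), had 6.31 ± 0.552 and lay apart from both Gpr17 above it and Itpr2 below it.

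The other 6 genes had lower levels. Itpr2, a calcium channel of the endoplasmic reticulum opened by inositol trisphosphate (chromosome 6, 146108299 to 146502223), had 4.09 ± 0.318 CPM per kb in the same mice. Neu4, a sialidase (chromosome 1, 94020451 to 94028334), had 2.77 ± 0.418, and Tcf7l2, a transcription factor of the Wnt pathway (chromosome 19, 55741820 to 55933654), had 2.76 ± 0.621. Enpp6, a choline-specific phosphodiesterase of newly formed oligodendrocytes (chromosome 8, 46986887 to 47096762), had 1.98 ± 0.529. Cspg4, the NG2 proteoglycan of precursors (chromosome 9, 56865033 to 56899870), had 1.97 ± 0.307, and from Neu4 to Cspg4 the ranges of neighbours in this order overlapped. Bmp4, a secreted ligand known to hold back differentiation (chromosome 14, 46383520 to 46390669), was lowest with 0.833 ± 0.307. In the FGF1-treated mice of Day 5 the order differed in that Gpr17 stood directly below Olig1, with 28.6 ± 3.63 CPM per kb against 40.7 ± 2.69, Enpp6 at 5.62 ± 1.13 had a mean above that of Neu4 (4.72 ± 0.535), and Bmp4 at 3.02 ± 0.701 had a mean above those of Tcf7l2 (2.64 ± 0.680) and Cspg4 (2.17 ± 0.181), with ranges of neighbours that overlapped.

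**Figure D1:**
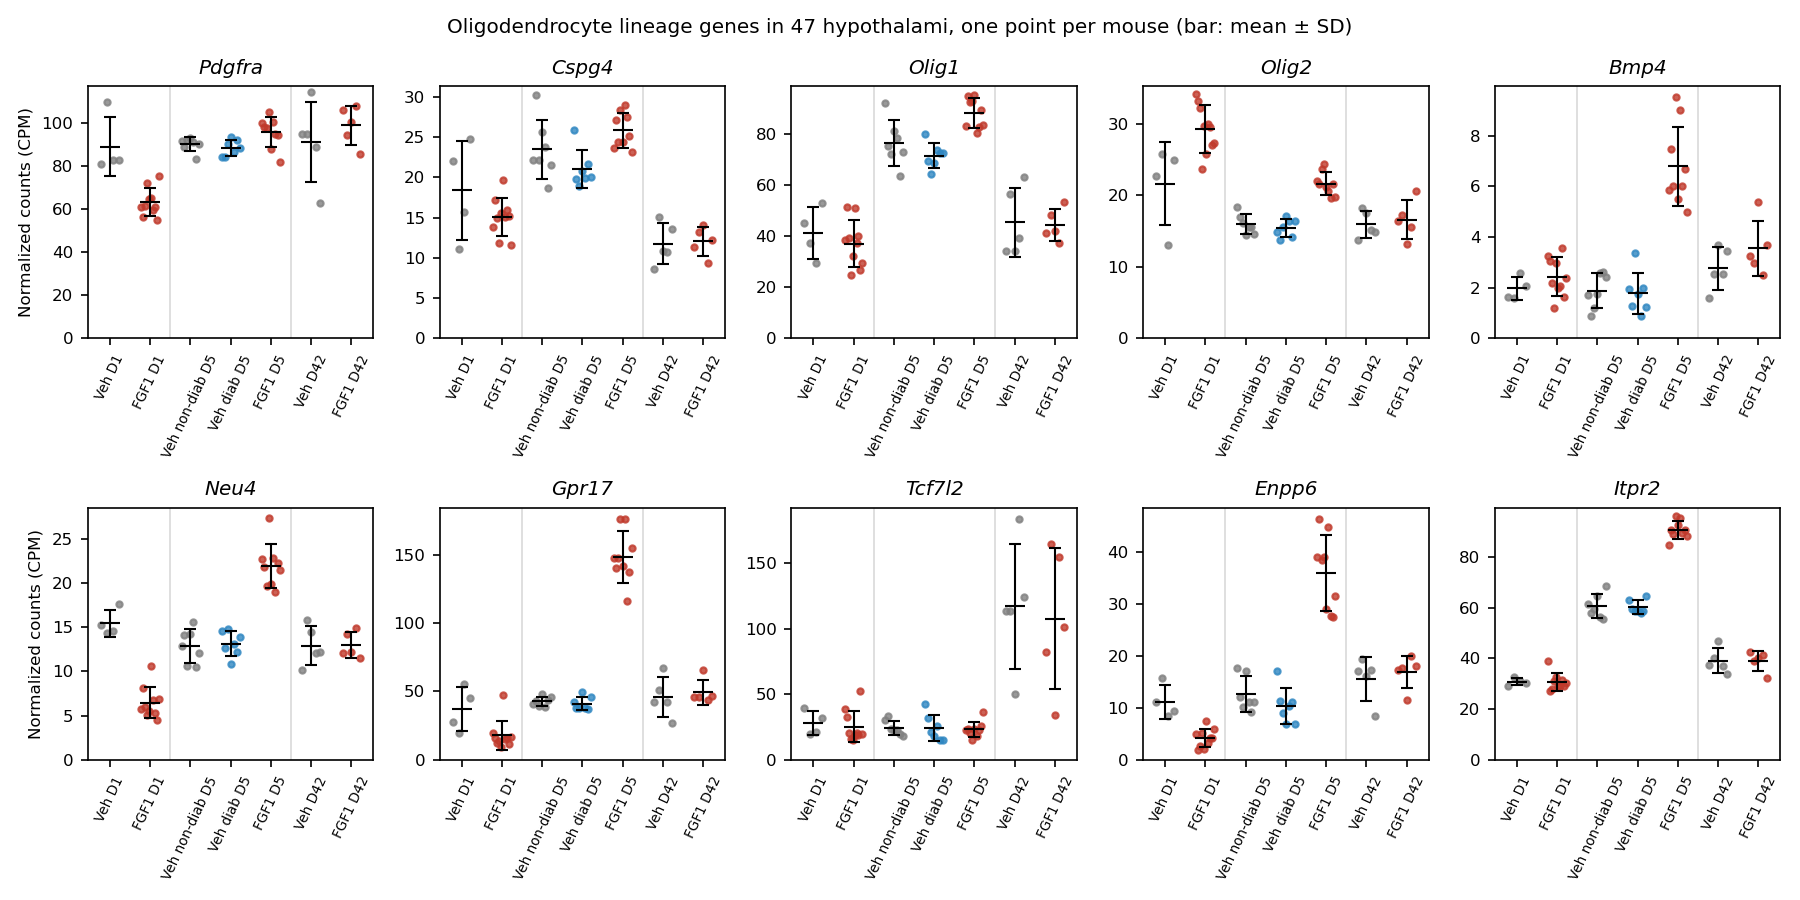
CPM (vertical axis, linear from 0) of each gene in the 7 groups, with 1 point per mouse, the mean as a horizontal mark and the SD as an error bar. Red points are FGF1-treated mice, grey points vehicle-treated mice and blue points the diabetic vehicle-treated mice of Day 5. On Day 5 the FGF1-treated mice lay above every vehicle-treated mouse for Bmp4, Neu4, Gpr17, Enpp6, Itpr2 and Olig2, and on Day 1 they lay below every vehicle-treated mouse for Pdgfra, Neu4 and Enpp6.

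The first comparison asked how the lineage stood 1 day after FGF1. On Day 1 Enpp6, Neu4 and Gpr17, genes of committed and newly formed cells, were lower after FGF1 than after vehicle, at 0.371, 0.422 and 0.477 times its level. With edgeR's quasi-likelihood test over all genes, 3 of the 10 genes passed an adjusted p of 0.05 with a log2 fold change beyond 0.5, and these 3 were lower while 0 were higher. Among all genes tested, 19.5% were called on this day, 8.05% lower and 11.5% higher. The median log2 fold change of the 10 genes was -0.24, beside 0.01 over all genes.

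Enpp6 was 11.2, 15.8, 8.40 and 9.35 CPM in the 4 vehicle-treated mice. It ran from 1.94 to 7.55 CPM in the FGF1-treated mice, with a median of 4.19. Every FGF1-treated mouse thus lay below every vehicle-treated mouse. The fold change was 0.371, a log2 fold change of -1.43 (SE 0.23, adjusted p = 1.96e-06, edgeR).

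Neu4 was 15.2, 14.4, 14.5 and 17.7 CPM with vehicle. With FGF1 it ran from 4.51 to 10.6 CPM around a median of 5.84, again with no overlap between the groups. Its log2 fold change was -1.24 (SE 0.13, adjusted p = 6.86e-11, edgeR), a level 0.422 times that of vehicle.

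Gpr17 varied more between mice. Its values with vehicle were 27.9, 19.4, 55.2 and 45.4 CPM, and with FGF1 they ran from 9.56 to 47.7 CPM with a median of 15.3. The groups overlapped, since 8 of the 10 FGF1-treated mice lay below every vehicle-treated mouse and FGF1 replicate 6 lay above 3 of the 4 values seen with vehicle. That mouse also had the highest Neu4 and Enpp6 of its group. Without it, 3 genes were called as before, and the log2 fold change of Gpr17 was -1.40 in place of -1.07. Exons of Gpr17 overlap those of Lims2 on the other strand by 188 bases, and Lims2, an adaptor of focal adhesions, was lower too, with a log2 fold change of -0.76 (adjusted p = 0.000389, edgeR). The library kit named in the study's methods keeps strand, but the strand setting of the counting is not given in the sources used here, so it is not known whether reads of the pair were told apart.

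The precursor genes differed in direction. Pdgfra was 80.9, 110, 82.9 and 83.0 CPM with vehicle and 55.0 to 75.6 CPM with FGF1, with a median of 61.3. All 10 FGF1-treated mice lay below all 4 vehicle-treated mice, and the exact permutation test gave p = 0.000999, the smallest it can give for these group sizes (two-sided). Its log2 fold change of -0.49 (SE 0.09, adjusted p = 8.17e-06, edgeR) lay just inside the threshold of 0.5, and it passed that threshold with DESeq2 (-0.54), with the size factors of DESeq2 (-0.54), with quantile normalization (-0.52), with at least 10 counts in every library (-0.50), after thinning to the lowest total (-0.61) and without vehicle replicate 1 (-0.54), 3 (-0.52) or 4 (-0.52). Without vehicle replicate 2, the mouse with 110 CPM, the log2 fold change was -0.38 and did not pass. Pdgfra, Neu4 and Enpp6 were the 3 genes whose groups did not overlap, where 6.81% of all genes lay below vehicle in every FGF1-treated mouse and 7.56% above.

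Olig2 went the other way, with 22.7, 25.7, 13.1 and 24.9 CPM with vehicle and 23.7 to 34.2 CPM with FGF1 (median 29.6). In 9 of 10 FGF1-treated mice it was above every vehicle-treated mouse. The log2 fold change was 0.42 (SE 0.11, adjusted p = 0.00155, edgeR), short of the fold threshold. It passed without vehicle replicate 2 (log2 fold change 0.52, adjusted p = 0.000516, edgeR) and with the quality weights of limma (0.52, adjusted p = 0.000122). At any fold, 45.0% of all genes had an adjusted p under 0.05 on this day. The log2 fold changes of Cspg4 (-0.28, SE 0.14), Olig1 (-0.16, SE 0.15), Bmp4 (0.25, SE 0.25), Tcf7l2 (-0.20, SE 0.30) and Itpr2 (-0.03, SE 0.07) did not pass, with adjusted p from 0.0948 to 0.737 (edgeR).

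**Figure D2:**
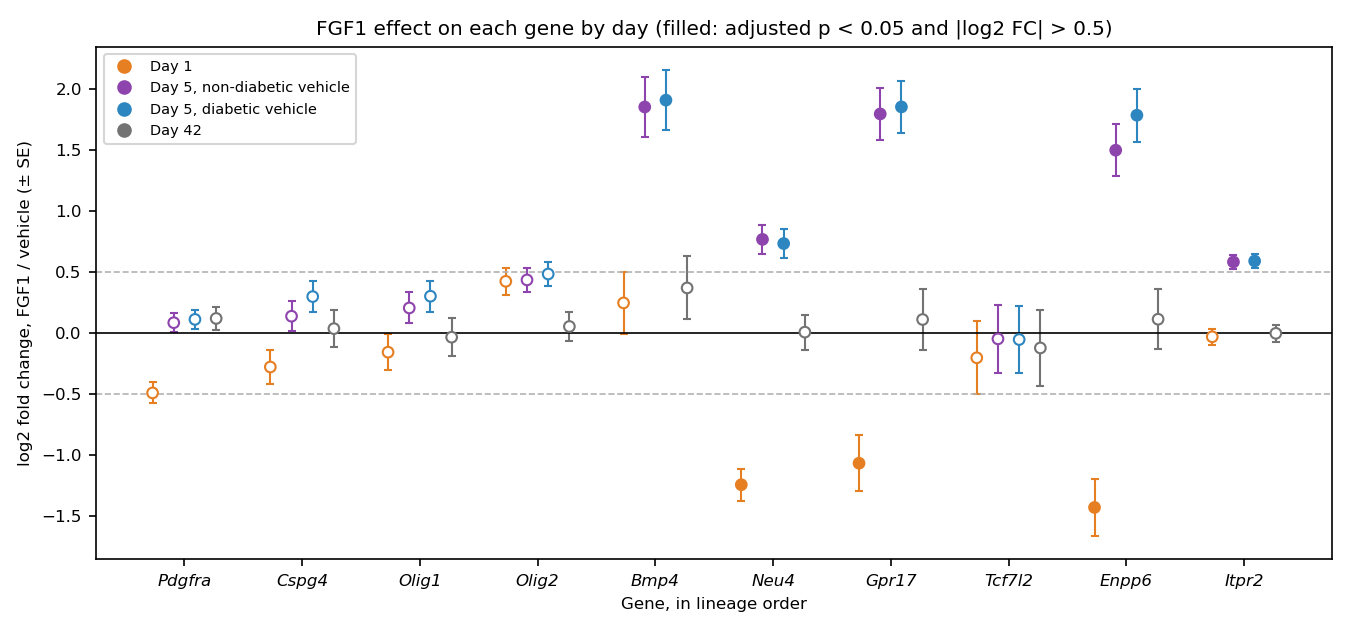
Log2 fold change of FGF1 over vehicle for each gene in lineage order, with the SE as an error bar and 1 colour per comparison. Filled points passed an adjusted p of 0.05 and the fold threshold of 0.5 (dashed lines). Neu4, Gpr17 and Enpp6 lay below 0 on Day 1 and above 0 on Day 5, and on Day 42 the points lay between -0.12 and 0.37.

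On Day 5 the committed genes Bmp4, Neu4 and Gpr17 and the newly formed genes Enpp6 and Itpr2 were higher in FGF1-treated mice, while Tcf7l2, the other gene of newly formed cells, did not pass. Bmp4 and Gpr17 were above 3 times the vehicle level, Enpp6 was 2.83 times, Neu4 1.70 times and Itpr2 1.498 times the level of non-diabetic vehicle. Of the 10 genes, 5 were called higher and 0 lower, where 1.54% of all genes tested were called, 1.31% higher and 0.232% lower. Against diabetic vehicle 5 were also called higher and 0 lower, where 2.85% of all genes were called, 2.36% higher and 0.499% lower. The 2 comparisons share the same FGF1-treated mice, so that the second is not an independent repeat. The median log2 fold change of the 10 genes was 0.51 against non-diabetic and 0.54 against diabetic vehicle, beside -0.01 over all genes in each.

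The ligand Bmp4 ran from 4.97 to 9.53 CPM in the 9 FGF1-treated mice, with a median of 6.01. It ran from 0.878 to 2.62 CPM in non-diabetic and from 0.871 to 3.36 CPM in diabetic vehicle-treated mice, with medians of 1.74 and 1.74. The lowest FGF1-treated mouse was above the highest vehicle-treated mouse of either kind. Raw counts behind these values were low, from 8 to 44 per vehicle-treated mouse. Against diabetic vehicle the log2 fold change was 1.91 (SE 0.24, adjusted p = 2.32e-07, edgeR). The size of the change depended on the processing, from 1.90 to 2.83 against diabetic and from 1.81 to 2.63 against non-diabetic vehicle.

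Neu4, which fell on Day 1, ran from 19.02 to 27.4 CPM with FGF1 on Day 5 (median 21.8). Its range was 10.5 to 15.6 CPM in non-diabetic vehicle-treated mice (median 12.9) and 10.8 to 14.8 CPM in diabetic ones (median 13.1). The FGF1-treated mice lay above every vehicle-treated mouse. The log2 fold change was 0.77 against non-diabetic vehicle (SE 0.12, adjusted p = 2.49e-05) and 0.73 against diabetic vehicle (SE 0.12, adjusted p = 2.79e-05), both with edgeR.

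Gpr17 reached 116 to 176 CPM with FGF1 (median 147). It was 38.6 to 48.0 CPM in non-diabetic (median 43.1) and 37.1 to 49.3 CPM in diabetic vehicle-treated mice (median 38.1). The gap between the groups was larger than the whole range within either vehicle group. Against diabetic vehicle Gpr17 was 3.62 times higher, a log2 fold change of 1.85 (SE 0.22, adjusted p = 2.82e-08, edgeR). Lims2, which shares 188 bases of exon with it, was also higher, by a log2 fold change of 1.04 against non-diabetic vehicle (adjusted p = 1.15e-05, edgeR).

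Enpp6 ran from 27.5 to 46.5 CPM with FGF1 (median 38.5). It ran from 9.18 to 17.8 CPM in non-diabetic (median 11.2) and from 6.98 to 17.1 CPM in diabetic vehicle-treated mice (median 10.4). No vehicle-treated mouse reached the lowest FGF1-treated mouse. The log2 fold change was 1.499 against non-diabetic (SE 0.22, adjusted p = 3.22e-06) and 1.79 against diabetic vehicle (SE 0.22, adjusted p = 8.46e-08, edgeR for both).

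Itpr2, with little spread between mice, ran from 84.7 to 96.2 CPM with FGF1 (median 90.6), from 55.8 to 68.6 CPM with non-diabetic vehicle (median 59.6) and from 58.0 to 64.8 CPM with diabetic vehicle (median 58.9). The groups did not overlap, and a log2 fold change of 0.58 with an SE of 0.06 gave an adjusted p of 9.42e-10 (edgeR).

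Of the precursor genes, Olig2 was higher in each FGF1-treated mouse than in any vehicle-treated mouse, at 19.6 to 24.4 CPM against 14.4 to 18.4 and 13.7 to 17.1 CPM. Its log2 fold change of 0.44 (SE 0.10, adjusted p = 0.0043, edgeR) against non-diabetic and 0.48 (SE 0.10, adjusted p = 0.000756, edgeR) against diabetic vehicle stayed under the threshold of 0.5. Against diabetic vehicle Olig2 passed with at least 10 counts in every library (0.508, adjusted p = 0.000309, edgeR). It also passed there without the 2 FGF1-treated mice with the most counts (0.503, adjusted p = 0.00179, edgeR). Over 11 alternatives this value ran from 0.25 to 0.51. An adjusted p under 0.05 at any fold was found for 4.65% and 9.21% of all genes in these comparisons. Olig1 ran from 80.1 to 95.1 CPM with FGF1, above all diabetic vehicle-treated mice (64.1 to 79.7 CPM) but within reach of the non-diabetic ones (63.5 to 92.1 CPM). In all, FGF1-treated mice lay above every vehicle-treated mouse for 6 of the 10 genes with non-diabetic and 7 with diabetic vehicle, beside 2.38% and 3.63% of all genes. None of the 10 lay below every vehicle-treated mouse, beside 1.55% and 2.45% of all genes. For these genes the exact permutation test gave p = 8.74e-05, the smallest it can give for 9 against 7 mice (two-sided).

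Pdgfra, Cspg4, Olig1 and Tcf7l2 did not pass on Day 5 against either control in the fit of all counts. Pdgfra had a log2 fold change of 0.08 (SE 0.08) against non-diabetic and 0.11 (SE 0.08) against diabetic vehicle. The values for Cspg4 were 0.14 (SE 0.12) and 0.30 (SE 0.12), and those for Olig1 were 0.21 (SE 0.13) and 0.30 (SE 0.13). After thinning to the lowest total, Olig1 passed against diabetic vehicle (0.508, adjusted p = 0.00778, edgeR). Its range there was 0.30 to 0.51 over 11 alternatives. Tcf7l2 had -0.05 (SE 0.28) and -0.05 (SE 0.28), an SE several times that of Itpr2 (0.06).

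Between the 2 vehicle groups of Day 5, 0 of the 10 genes were called, and the count over all genes was also 0. None of the 10 had an unadjusted p under 0.05, while 193 of all genes did, and DESeq2 also called 0 genes. The groups overlapped for all 10 genes, where 0.0633% of all genes lay wholly higher and 0.0352% wholly lower in the diabetic mice. The difference furthest from 0 was that of Enpp6, with a log2 fold change of diabetic over non-diabetic of -0.29 (SE 0.23, unadjusted p = 0.228, edgeR).

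On Day 42 the 10 genes were not detectably different after FGF1 and after vehicle. With edgeR 0 of the 10 were called, as were 0 of all genes, and DESeq2 called 0 as well. The count over all genes depended on FGF1 replicate 1, without which 25 genes were called higher and 6 lower, and on replicate 2, without which 1 was called higher, with 0 of the 10 among them in either case. None of the 10 had an unadjusted p under 0.05, whereas 776 of all genes did. Bmp4 had the log2 fold change furthest from 0, at 0.37 (SE 0.26, unadjusted p = 0.159, edgeR). It was 1.59, 2.52, 3.68, 2.54 and 3.44 CPM with vehicle and 3.24, 2.99, 5.36, 2.49 and 3.67 CPM with FGF1.

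Gpr17 was 41.9, 51.0, 66.9, 42.2 and 27.2 CPM with vehicle on Day 42 and 45.6, 45.6, 65.6, 43.7 and 46.7 CPM with FGF1. Enpp6 was 17.2, 19.4, 16.1, 17.3 and 8.35 CPM with vehicle and 17.3, 17.8, 11.6, 19.9 and 18.1 CPM with FGF1. The groups overlapped for all 10 genes, where 0.0914% of all genes lay wholly above and 0.176% wholly below vehicle. The log2 fold change was 0.11 for Gpr17 (SE 0.25), 0.11 for Enpp6 (SE 0.25) and 0.01 for Neu4 (SE 0.14), so that the error was wider for the former pair.

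Whether the FGF1 effect itself differed between days was tested as a difference of contrasts, in which the Day 5 mice enter both tests and non-diabetic vehicle is the control of Day 5. From Day 1 to Day 5 the effect was higher for 6 of the 10 genes and lower for 0, where 15.8% of all genes were called, 7.28% higher and 8.52% lower, and 26.6% had an adjusted p under 0.05 at any fold. Enpp6 had the largest difference, with a log2 value of 2.93 (SE 0.32, adjusted p = 5.08e-10, edgeR), followed by Gpr17 with 2.86 and Neu4 with 2.01 (SE 0.18, adjusted p = 2.36e-12). The effect on Bmp4 was higher by 1.61, on Itpr2 by 0.61 (SE 0.09, adjusted p = 5.45e-07) and on Pdgfra by 0.58 (SE 0.12, adjusted p = 0.000157). The call for Pdgfra was lost without vehicle replicate 2 of Day 1, whose 110 CPM lay far above the other 3 vehicle-treated mice, with a log2 value of 0.46. With diabetic vehicle as the control of Day 5, 7 genes were higher, as Cspg4 also passed (0.58, adjusted p = 0.0154, edgeR). With non-diabetic vehicle Cspg4 passed with the quality weights of limma (0.55, adjusted p = 0.00335). It also passed without vehicle replicate 2 of Day 1 (0.60, adjusted p = 0.0107, edgeR). Over 17 alternatives its value ran from 0.24 to 0.60. Olig2 differed by 0.01 (SE 0.15, adjusted p = 0.969, edgeR), with values above 0 on both days.

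From Day 5 to Day 42 the effect was lower for 5 of the 10 genes and higher for 0, beside 0.485% and 0.232% of all genes, 0.717% in all and 0.942% at any fold. The differences were -1.69 for Gpr17, -1.48 for Bmp4, -1.39 for Enpp6 (SE 0.33, adjusted p = 0.0209), -0.76 for Neu4 (SE 0.19, adjusted p = 0.0297) and -0.59 for Itpr2 (SE 0.09, adjusted p = 0.000159), with edgeR. The calls for Bmp4 and Neu4 depended on single mice of Day 42. Without vehicle replicate 3 of that day, 3 genes were called, with adjusted p of 0.0702 for Bmp4 and 0.0695 for Neu4. Neu4 was also lost without vehicle replicate 2 (adjusted p = 0.0725) or FGF1 replicate 5 (adjusted p = 0.0764), and Bmp4 without FGF1 replicate 4 (adjusted p = 0.0522). Leaving out both FGF1-treated mice of Day 5 with the most counts also lost Neu4 (adjusted p = 0.0543, edgeR).

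Other genes of the lineage were counted from lists that do not contain the 10 genes. On Day 5, against non-diabetic vehicle, 9 of 23 other committed and newly formed genes were called higher and 0 lower, with a median log2 fold change of 0.19, where 1.31% of all genes were called higher and 0.232% lower. Against diabetic vehicle, which shares the FGF1-treated mice, the count was also 9. Those with the largest change besides Lims2 were Zfp488, a co-factor of Olig2 in differentiation (0.86), Bcas1, a marker of newly myelinating cells (0.83), Tns3 (0.70) and Fyn, a kinase needed for process outgrowth and myelination (0.65). Of 20 other precursor genes, 1 was called higher, namely Nkx2-2, a transcription factor of the step to differentiation (0.62, adjusted p = 0.0105, edgeR), and the median of that list was 0.11. Among 26 genes of mature, myelinating oligodendrocytes, 7 were called higher with a median of 0.32, among them Ugt8a (0.76), the enzyme that makes the myelin lipid galactosylceramide. Against diabetic vehicle 3 precursor and 8 mature genes were called higher and 0 lower, where 2.36% of all genes were called higher and 0.499% lower. The median over all genes was -0.01.

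On Day 1 most myelin genes were lower. Of the 26, 17 were called lower and 4 higher, with a median log2 fold change of -0.66 beside 0.01 for all genes, of which 8.05% were called lower and 11.5% higher. Aspa, which breaks down N-acetylaspartate, had a log2 fold change of -2.06 and Mog, a protein of the outer myelin surface, of -1.62. Klk6 (2.61), Trf (2.23) and Gjb1 (2.19) were higher. Of the precursor list 4 of 20 were called lower and 0 higher, and these were Sox8 (-1.05), Susd5 (-0.67), Sox6 (-0.67) and Pcdh15 (-0.53). In the committed and newly formed list 3 were higher, led by Arpc1b (2.497), a subunit of the actin-branching complex, and 4 were lower, among them Nkx6-2 (-1.08) and Mycl (-1.04). On Day 42, 0 genes of the 3 lists were called, with medians of 0.02, 0.04 and 0.15.

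**Figure D3:**
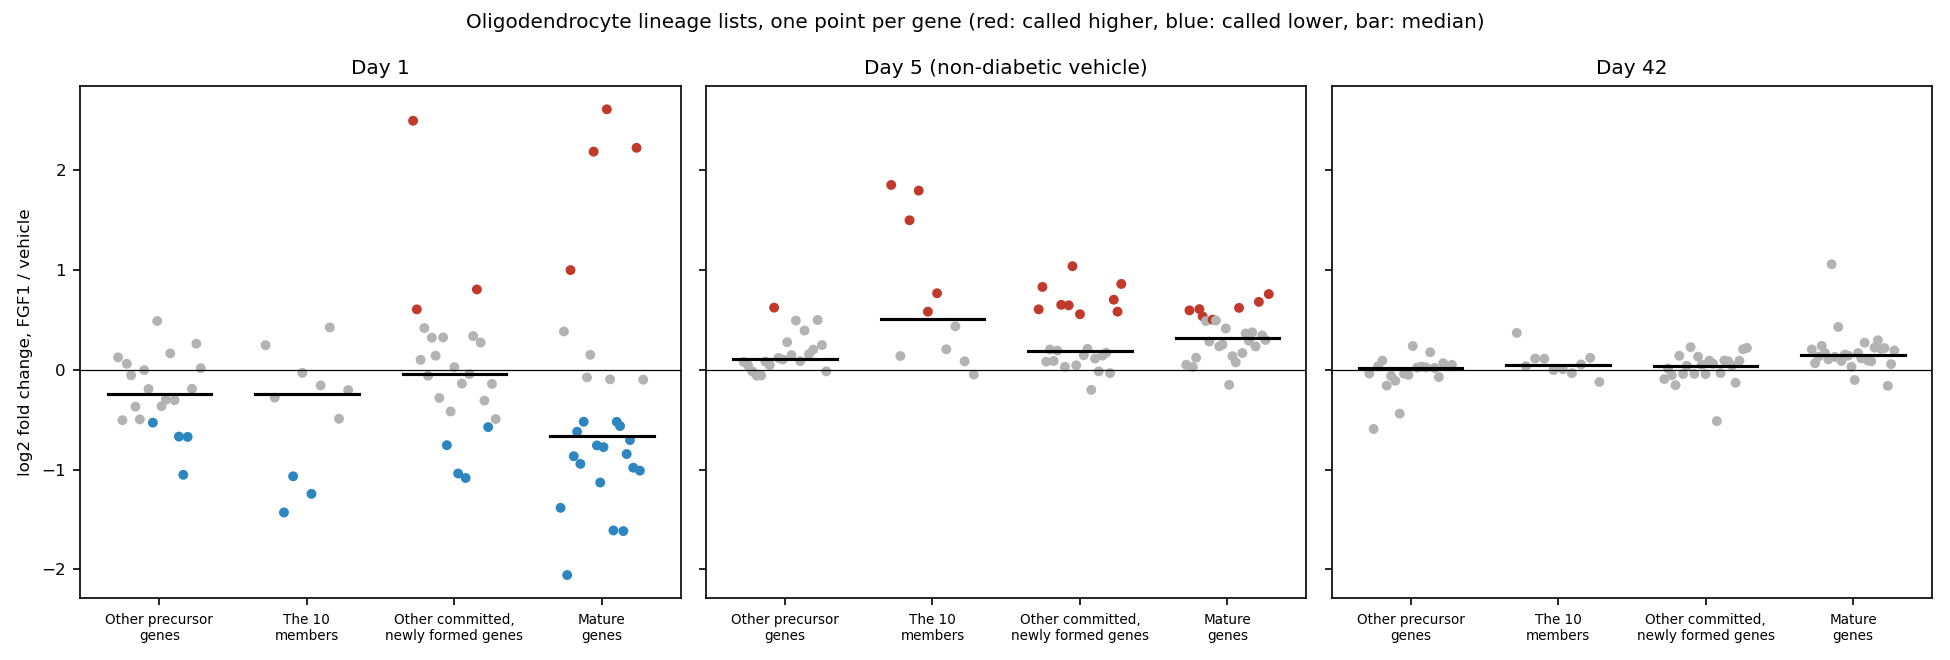
Log2 fold change of FGF1 over vehicle for the genes of 4 lists on Days 1, 5 and 42, with 1 point per gene and the median as a bar. Red and blue points were called higher and lower, and grey points were not called. On Day 1 the mature genes had a median of -0.66, on Day 5 the 10 genes had a median of 0.51 with 5 called higher, and on Day 42 no gene was called.

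The signals that act on precursors were counted in the same way, and their counts stand beside 11.5% of all genes called higher and 8.05% lower on Day 1, and 1.31% and 0.232% on Day 5 against non-diabetic vehicle. Among the 4 PDGF ligands and the beta receptor, Pdgfd, a ligand of the beta receptor, had a log2 fold change of -0.95 on Day 1 (adjusted p = 1.23e-07) and of 0.64 against non-diabetic vehicle on Day 5 (adjusted p = 0.000531, edgeR), and the other 4 of the 5 were not called on either day. Of 20 genes of BMP signalling, 5 were called higher and 4 lower on Day 1, while on Day 5 against non-diabetic vehicle 1 was called, Id3, a target of BMP ligands that holds back basic helix-loop-helix factors (1.09, adjusted p = 4.56e-05, edgeR). Id3 was 39.4 to 51.5 CPM in FGF1-treated and 18.8 to 26.8 CPM in non-diabetic vehicle-treated mice of Day 5. Against diabetic vehicle 2 were called, Id3 (1.01) and Smad6, an inhibitor of BMP signalling (0.89, adjusted p = 0.0352, edgeR). Of 13 partners and targets of Tcf7l2, 1 was called on Day 1, Tcf7 (0.65), and 0 on Day 5. Of 9 genes known to brake differentiation, 3 were higher and 1 lower on Day 1, the latter being Hes5 (-1.03), and 0 were called on Day 5.

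Cell-cycle genes, which dividing precursors share with every other dividing cell, were higher on Day 1 for 9 of 11 with 0 lower. Mki67, a protein of cycling nuclei, was 0.423 to 1.19 CPM with vehicle and 1.52 to 9.69 CPM with FGF1. On Day 5 it was the 1 gene of this list that was called (log2 fold change 1.36, adjusted p = 0.0109, edgeR), at 3.76 to 10.9 CPM against 0.905 to 3.53 CPM. Which cells divided cannot be told apart in bulk tissue.

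Markers of other cell types that share these genes, or that moved on the same days, are given here, and their part in the results was not tested. The same shares of all genes, 11.5% higher and 8.05% lower on Day 1 and 1.31% and 0.232% on Day 5 against non-diabetic vehicle, stand beside these counts, with 2.36% and 0.499% against diabetic vehicle. Pdgfra is also made by leptomeningeal fibroblasts. On Day 1, 5 of their 12 markers were lower and 3 higher, and the summed level of the list was 119 to 484 CPM with FGF1 and 196 to 362 CPM with vehicle. On Day 5, 4 of the 12 were higher against non-diabetic vehicle and 1 against diabetic vehicle, with sums of 117 to 440 CPM with FGF1, 70.0 to 242 CPM with non-diabetic and 91.6 to 260 CPM with diabetic vehicle. The defining marker Col1a1 was above 0 in every group, from 1.67 to 16.4 CPM. Cspg4 is also made by pericytes, of whose 12 markers 3 were higher and 2 lower on Day 1 and 0 were called on Day 5. Their sum on Day 5 was 243 to 347 CPM with FGF1 and 215 to 348 CPM with non-diabetic vehicle.

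Astrocyte and microglia markers moved on the same days as the lineage genes. Gfap, the intermediate filament of reactive astrocytes, had a log2 fold change of 2.81 on Day 1 and 1.29 on Day 5. Of 12 astrocyte markers 2 were higher and 3 lower on Day 1, and 2 were higher on Day 5, when their sum was 6207 to 6727 CPM with FGF1 and 5485 to 5718 CPM with non-diabetic vehicle. Of 10 microglia markers 8 were higher and 1 lower on Day 1. On Day 5, 1 was higher against non-diabetic and 8 against diabetic vehicle. Against non-diabetic vehicle all 10 had a log2 fold change above 0. Of these, 5 had an adjusted p under 0.05 at any fold, beside 4.65% of all genes (edgeR). The microglia sum was 406 to 509 CPM with FGF1, 316 to 572 CPM with non-diabetic vehicle (median 328) and 290 to 331 CPM with diabetic vehicle. Of 10 endothelial markers 2 were higher on Day 1 and 0 were called on Day 5, and of 10 neuron markers 0 were called on either day. The neuron sum on Day 1 was nevertheless 4933 to 6102 CPM with FGF1 and 6129 to 7451 CPM with vehicle, without overlap, and 3 of the 10 markers were lower and 0 higher at an adjusted p under 0.05 with no fold threshold (edgeR). On Day 5 that sum was 5477 to 6056 CPM with FGF1 and 5887 to 6103 CPM with non-diabetic vehicle, with overlap.

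Tcf7l2 stood apart from the other genes of newly formed cells. It had similar levels on Days 1 and 5 in all groups, with medians from 20.3 to 26.4 CPM. On Day 42 it was 113, 114, 50.2, 184 and 124 CPM with vehicle and 82.6, 165, 34.4, 155 and 102 CPM with FGF1. These values are higher than those of the other days for 8 of the 10 mice, and the spread within each group was wide.

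Tcf7l2 is also a known gene of thalamic neurons, and the thalamus borders the hypothalamus. The 3 genes whose deviations from the group means were most like those of Tcf7l2 were Shox2 (Pearson's r 0.92), Synpo2 (0.92) and Ntng1 (0.90), over 47 libraries and among 14123 genes. The summed level of 14 thalamic markers was 979.9 CPM in the FGF1-treated mouse of Day 42 with the lowest Tcf7l2 and 1194 CPM in the vehicle-treated mouse with the lowest. It was 3193 CPM in the vehicle-treated mouse with 184 CPM of Tcf7l2. Prkcd, a marker of thalamic relay neurons, ranged from 27.0 to 532 CPM over the mice of Day 42. Gbx2, another gene of the list, was 0 to 2.55 CPM in the FGF1-treated mice of Day 1. The sum was still 819 to 1110 CPM in those mice. The list also shares Slc17a6 with the neuron markers, so its sum does not measure thalamic tissue alone. A diabetic vehicle-treated mouse of Day 5 had a thalamic sum of 2060.0 CPM and 42.6 CPM of Tcf7l2. The part of thalamic tissue in the Tcf7l2 levels was not tested, and day and preparation were not separated. Of the thalamic markers 1 was called on Day 1 and 0 on Days 5 and 42.

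**Figure D4:**
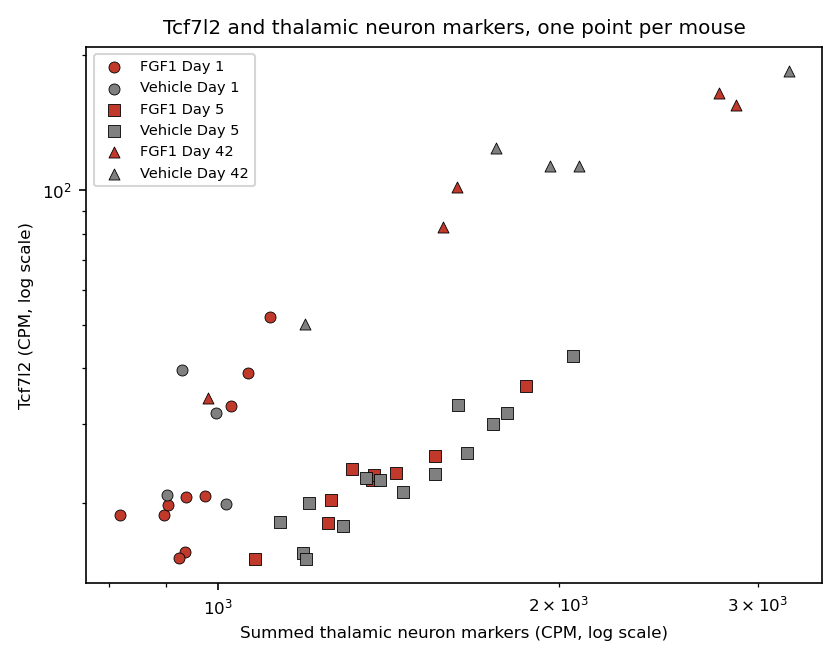
CPM of Tcf7l2 (vertical axis, log scale) against the summed CPM of 14 thalamic neuron markers (horizontal axis, log scale), with 1 point per mouse. Shape gives the day and colour the treatment, red for FGF1 and grey for vehicle. The mice of Day 42 run from 34.4 to 184 CPM of Tcf7l2, with higher values in mice with more thalamic markers, whose part in the level was not tested.

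The same measure of likeness placed other genes near the remaining members of the list. It is given as a description, since the points share library depth and dissection, and each r is over 47 libraries. Genes near Enpp6 included Ermn (r 0.83) and Anln (0.82), which are genes of myelinating oligodendrocytes. Neu4 was nearest to Prr18 (0.57), Snx22 (0.55) and Sox8 (0.55), and Gpr17 to Gpam (0.78), Acss1 (0.72) and Myo10 (0.68). Pdgfra was nearest to Sema3d (0.86), Sdc2 (0.82) and Usp47 (0.80). Olig1 lay nearest to Bsg (0.84), Higd2a (0.83) and Gpr37l1 (0.83), and genes near Cspg4 included Pigo (0.85) and Prrc2a (0.85). The nearest genes of Olig2 were Ndufb6 (0.57), Galnt18 (0.56) and Epas1 (0.54), those of Bmp4 were Fxyd5 (0.74), Eya2 (0.73) and Slc41a1 (0.72), and those of Itpr2 were Galr1 (0.75), Pcdhgb2 (0.71) and Slc9a7 (0.71). Among the 10 genes themselves, Cspg4 and Olig1 were most alike (r 0.66), followed by Pdgfra and Itpr2 (0.52) and by Neu4 and Gpr17 (0.52), while Tcf7l2 and Pdgfra deviated in opposite directions (-0.49).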

How the data were processed

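Messenger RNA of the hypothalamus was sequenced from 47 mice in 7 groups. The authors deposited raw, unnormalized whole-number counts for each gene. The submitters' processing notes name STAR, DESeq2 and the build GRCh38, and the study's methods give a numbered release of that build for mouse. The counting program, strand setting and gene filter are not given in the sources used here. A deposited sample table supplied group and preparation codes, which are labels and other text, not measurements. Each gene had at least 307 counts in all.

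Counts were scaled by TMM and fitted with edgeR 4.0.16 (quasi-likelihood, R 4.3.3) with 1 mean per group, with Benjamini-Hochberg adjustment across the 14221 genes. Calls required an adjusted p under 0.05 together with a log2 fold change beyond 0.5 in either direction. The filter of edgeR removed 0 genes. CPM are scaled by TMM, and exact permutation tests used log2(CPM + 0.5). Each library is 1 mouse, and p-values measure the spread between mice. The depth, from 1243280 to 47082403 counts, limits mainly Bmp4, and in the shallowest library also Neu4 and Enpp6.

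The 10 genes and all lists were chosen with earlier results of these data known. Named genes are the 10, up to 5 called genes per other list and comparison by size of change, and the 3 genes most like each of the 10. Some genes that this rule selects are not reported here. Likeness is Pearson's r of residuals of log2(CPM + 0.5) from the group means, among genes with a mean of at least 1 CPM. Exon lengths, coordinates and overlaps are from GENCODE M21 (GRCm38), in which 14180 genes were found by name. Promoters are from RefSeq on GRCm38.p6. Alternatives tried were DESeq2 1.42.0, edgeR with the size factors of DESeq2, limma 3.58.1 with quantile normalization or quality weights, other filters and thresholds, fits of single days, other choices of the Day 5 control, all libraries thinned to the lowest total, and libraries left out. The programs were tested on simulated data.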

Additional observations from a re-analysis of the deposited data

Results flagged for a closer look

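In 70 sets of 1 gene in 1 group, 9 values lay far from the other mice of their group by Dixon's ratio on log2(CPM + 0.5), where chance gives about 1 in 20 sets. On Day 1 these were Pdgfra in vehicle replicate 2 (110 CPM), Gpr17 in FGF1 replicate 6 (47.7 CPM) and Itpr2 in FGF1 replicate 1 (39.1 CPM), the library with the fewest counts. On Day 5 they were Pdgfra in non-diabetic vehicle replicate 6 (83.5 CPM) and Neu4 in FGF1 replicate 4 (27.4 CPM). On Day 42 they were Gpr17 (65.6 CPM) and Enpp6 (11.6 CPM) in FGF1 replicate 3, Enpp6 in vehicle replicate 5 (8.35 CPM) and Itpr2 in FGF1 replicate 5 (32.1 CPM).

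The FGF1 effect differed between days in a test of the difference itself (edgeR). Between Day 1 and Day 5 the log2 difference was 0.58 for Pdgfra, 1.61 for Bmp4, 2.01 for Neu4, 2.86 for Gpr17, 2.93 for Enpp6 and 0.61 for Itpr2. Between Day 5 and Day 42 it was -1.48 for Bmp4, -0.76 for Neu4, -1.69 for Gpr17, -1.39 for Enpp6 and -0.59 for Itpr2.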

How the results depend on the processing

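Of 1082 log2 fold changes recomputed under the alternatives, 1049 kept their direction and their side of the threshold, where a value that was not called and crossed 0 by less than its SE counts as kept. The 1049 include values that could not change. Leaving out the filter on low counts repeats the fit used throughout, since the filter of edgeR removed 0 genes. Dropping the fold threshold reuses its log2 values, so that no direction can change. With diabetic vehicle as the control, the Day 5 comparison is the one against diabetic vehicle already given. With no fold threshold, 5 genes passed on Day 1, as Pdgfra and Olig2 were added. With at least 10 counts required in every library, 2 genes were called on Day 5 against non-diabetic and 3 against diabetic vehicle. The effect of Day 5 against Day 1 had 3 called genes and that of Day 42 against Day 5 had 2. That filter removes Bmp4, Neu4 and Enpp6, which have fewer than 10 counts in FGF1 replicate 1 of Day 1. Against diabetic vehicle on Day 5, Olig2 was gained under it (0.51, adjusted p = 0.000309, edgeR). All libraries thinned to the lowest total gave 2 genes for Day 42 against Day 5, as Neu4 (-0.83, adjusted p = 0.413) and Itpr2 (-0.65, adjusted p = 0.0729) lost their calls with log2 values at least as far from 0 as with all counts, and Bmp4 did not pass the filter on low counts. Quantile normalization with limma lost Bmp4 in that comparison (-2.26, adjusted p = 0.093). Leaving out 1 mouse of Day 42 at a time gave 3 to 5 genes for that comparison. Directions reversed on Day 42 for Olig1 with quality weights (0.14), for Olig2 after thinning (-0.12) and for Itpr2 without vehicle replicate 3, where leaving out 1 mouse of Day 42 at a time gave -0.0492 to 0.0722 and the value with all mice was -0.00, none of them called. The cause was not tested. Alternatives for Day 1 include the fit without FGF1 replicate 6, chosen after seeing the data. No paired analysis was possible because the labels give no replicate numbers shared between groups, and mice were numbered in accession order.

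The depth of 1243280 counts in the shallowest library limits Bmp4, Enpp6 and Neu4, with 4, 6 and 7 counts there. On Day 42, 5 mice against 5 leave SE of up to 0.31 on the log2 scale, and the calls for Bmp4, Neu4 and Itpr2 between Days 5 and 42 depend on single mice or on the processing.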
